A study of Mus musculus with 40 samples.

Results

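The angiopoietin-Tie pathway and the endothelial branch of the Notch pathway were followed through 10 genes in hearts from CM-Il11-Tg mice and their controls: the ligands *Angpt1* and *Angpt2*, the receptors *Tek* and *Tie1*, the Notch ligands *Dll4* and *Jag1*, the Notch receptors *Notch1* and *Notch4*, and the targets *Hey1* and *Hey2*. They were chosen by name as pathway members, by a rule that uses no measured value but was written with earlier results of these data known, and all 10 are among the 17646 genes listed for male and the 17223 genes listed for female hearts. PolyA RNA of the heart was sequenced in 40 libraries, of which 38 are used here. CM-Il11-Tg mice carried 1 copy of a *Rosa26-Il11* transgene, silent until recombined, and 1 copy of α-MHC-MerCreMer (MCM), a Cre recombinase that the α-MHC promoter drives in cardiomyocytes and that acts on exposure to tamoxifen. These mice were sampled 1 week (4 males, 4 females), 3 weeks (4 males, 4 females) and 6 weeks (3 males, 4 females) after tamoxifen, which was begun at an age of 8 weeks and injected daily for 5 days (20 mg/kg). The controls (3 males, 4 females) were littermates with MCM and without *Rosa26-Il11* that also received tamoxifen, labelled as baseline with no week given. The uninduced mice (4 males, 4 females) were CM-Il11-Tg without tamoxifen, also labelled as baseline. Every group therefore carried MCM, and the uninduced mice alone received no tamoxifen. Below, "after tamoxifen" refers to the induced CM-Il11-Tg mice at weeks 1, 3 and 6, although the controls had received tamoxifen as well.

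Angiopoietin-1 and angiopoietin-2 are secreted ligands of the receptor tyrosine kinase Tie2, which is encoded by *Tek* and is found mainly on endothelial cells. Angiopoietin-1, made by mural and other perivascular cells, keeps Tie2 active and vessels quiescent, and angiopoietin-2, released by endothelial cells, acts as a context-dependent antagonist, while Tie1 is a co-receptor without a high-affinity ligand of its own that modulates Tie2. In the Notch pathway a ligand on one cell (*Dll4*, *Jag1*) triggers cleavage of a receptor on its neighbour (*Notch1*, *Notch4*), the freed intracellular domain joins the DNA-binding protein RBPJ, and target genes such as *Hey1* and *Hey2*, which encode repressors of transcription, are switched on. In vessels this pathway restrains sprouting and sets arterial identity, and both pathways are active in the endothelium of the adult heart.

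Values are read counts that the authors scaled per library, called CPM here, and a change is a difference of mean log2(CPM + 0.5) from limma with its standard error (SE). A gene is called where its adjusted p, Benjamini-Hochberg over all genes tested in that sex, is under 0.05. Libraries held between 16663513 and 65333832 reads on listed genes in males and between 19147947 and 30929192 in females, so the smallest count behind a value of the 10 genes was 34 reads, for *Angpt2*. *Il11* was at or below 0.166 CPM in every control library, between 15.5 and 49.1 CPM in the uninduced libraries and between 328 and 819 CPM after tamoxifen, so the uninduced hearts were not free of it. The heart label was met by its markers, with *Myh6*, the main adult myosin heavy chain of mouse cardiomyocytes, at 10751 CPM or more in all 38 libraries. The columns sum to more in controls (medians of 1191894 in males and 1190782 in females) than after tamoxifen (group medians from 910099 to 962431), and the effect of the scaling on the 10 genes is given after their values. The male week 6 library of replicate 4 stood apart from the other male week 6 libraries with a column sum of 1165099, against 906746 to 962431 in those. The male and female tables were scaled separately, so values are compared within a sex only.

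Ranked by level per kb of merged exon, which allows genes to be compared, *Tie1* stood highest in male controls at 29.2 ± 3.0 CPM per kb (SD, n = 3), above *Tek* at 11 ± 1.2. *Notch4* (7.79 ± 0.33) and *Dll4* (6.34 ± 0.40) came next, followed by *Notch1* (3.75 ± 0.30) and *Angpt1* (2.82 ± 1.77). *Jag1* (2.35 ± 0.27) and *Hey1* (2.24 ± 0.35) were lower, and *Angpt2* (0.863 ± 0.099) and *Hey2* (0.690 ± 0.036) were lowest. Neighbours from *Notch1* down to *Hey1* overlapped within their SDs, and the steps above *Notch1*, from *Hey1* to *Angpt2* and from *Angpt2* to *Hey2* did not. The female controls gave the same order, with *Tie1* at 28.1 ± 0.7, *Tek* at 9.10 ± 0.57, *Angpt2* at 0.721 ± 0.182 and *Hey2* at 0.638 ± 0.078 CPM per kb, except that *Hey1* (2.64 ± 0.66) stood above *Jag1* (2.06 ± 0.13) there. In females *Tek* and *Notch4* (8.46 ± 0.55) also overlapped within their SDs, as did *Angpt2* and *Hey2*. Merged exon lengths come from all annotated transcripts and so understate the level of a gene with long rare isoforms.

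In the induced hearts the pathway genes that changed against control mostly fell, and the genes called were not all the same in males and females. In males 5 of the 10 genes were lower and 0 higher at week 1, beside 14.6% of all 16931 tested genes lower and 18.9% higher (33.5% called). At week 3 it was 3 of 10 lower, beside 8.10% of all genes lower and 13.2% higher (21.3% called), and at week 6 again 3 of 10 lower, beside 10.9% lower and 16.2% higher (27.1% called). In females 5 of 10 were lower at week 1, beside 13.1% of all 16956 tested genes lower and 15.3% higher (28.4% called). At week 3 it was 6 of 10 lower, beside 14.5% lower and 16.8% higher (31.3% called), and at week 6 5 of 10 lower and 1 higher, beside 21.0% lower and 21.7% higher (42.7% called). The median change of the 10 genes was −0.39, −0.34 and −0.32 on the log2 scale at weeks 1, 3 and 6 in males and −0.40, −0.56 and −0.34 in females, where the median over all genes lay between −0.02 and 0.02. The 3 comparisons of a sex share their control libraries. The paper describes its controls as age-matched littermates. The labels give no week for these libraries, so they may differ in age from the induced hearts. In RNA from whole tissue, fewer cells of a type and less RNA per cell cannot be told apart.

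**Figure D1:**
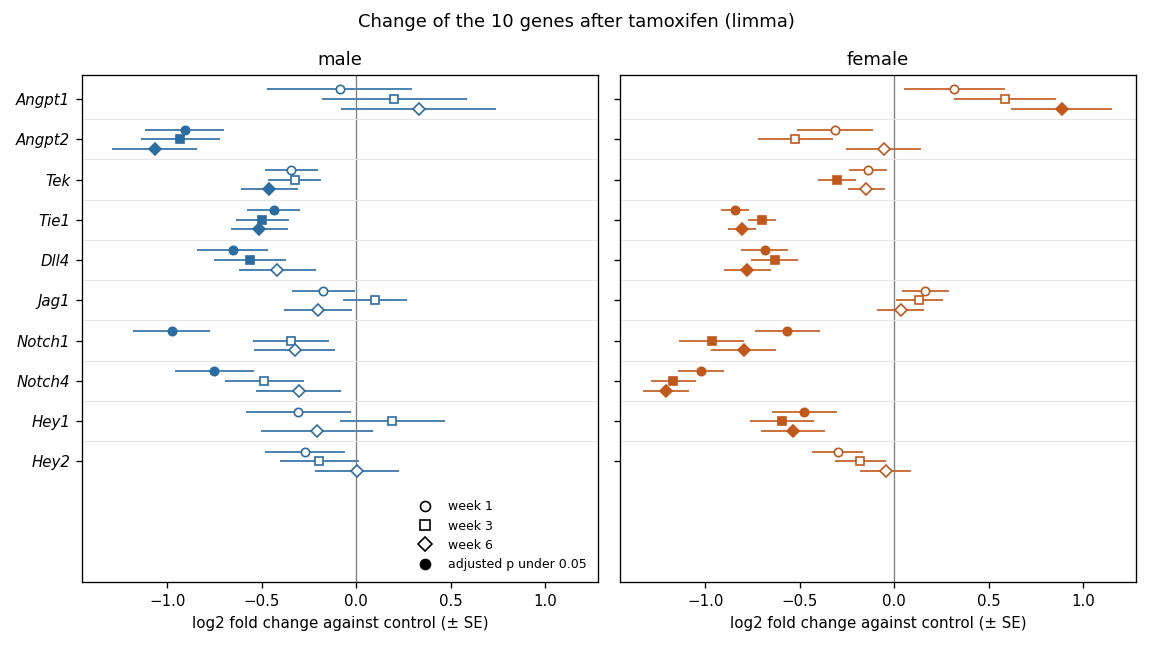
Log2 fold change against control (x axis, bars ± SE) of the 10 genes in males (left) and females (right) at weeks 1, 3 and 6, with filled symbols for an adjusted p under 0.05. *Tie1* is filled and left of 0 at all weeks in both sexes, *Angpt2* at all weeks in males only, and *Notch4* at all weeks in females and week 1 in males.

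Of the ligands, *Angpt2* (chromosome 8, 18739202 to 18791603 in GRCm39, minus strand) fell in male hearts. It stood at 3.67, 4.62 and 4.12 CPM in the 3 male controls. At week 1 the 4 male libraries held 2.85, 1.80, 2.19 and 1.27 CPM, at week 3 1.97, 2.11, 1.97 and 1.66 CPM, and at week 6 the 3 libraries held 2.26, 2.05 and 1.03 CPM. Every male library after tamoxifen lay below every male control. The changes were −0.91 ± 0.21, −0.93 ± 0.21 and −1.07 ± 0.22 (adjusted p = 0.00252, 0.00287 and 0.00138, limma), and each call held when any single library was left out.

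In females *Angpt2* was not called. The 4 controls held 3.66, 2.86, 2.7 and 4.60 CPM, and the week 6 libraries held 2.7, 3.44, 4.67 and 2.50 CPM, which overlapped them fully. Week 3 came closest, with 2.79, 1.56, 1.85 and 2.85 CPM and a change of −0.52 ± 0.20 (adjusted p = 0.0517, limma), and the changes at weeks 1 and 6 were −0.31 ± 0.20 and −0.06 ± 0.20. Whether the sexes differ was not tested, since their tables were scaled apart. On the opposite strand *Mcph1*, which encodes microcephalin, shares 70.68% of the merged exon bases of *Angpt2*, and whether reads were counted by strand is not given in the sources used here, so the level of *Angpt2* is uncertain. *Mcph1* itself lay between 4.69 and 6.74 CPM in all 18 male libraries, and its changes against control were 0.03, −0.01 and −0.12 in males, none of them called.

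*Angpt1* (chromosome 15, 42288058 to 42540417, minus strand) was the 1 gene of the 10 that rose. In female controls it stood at 16.1, 12.7, 25.1 and 23.1 CPM and at week 6 at 30.2, 44.8, 29.7 and 36.5 CPM. All 4 week 6 libraries lay above all 4 controls, with a change of 0.89 ± 0.27 (adjusted p = 0.0117, limma). The change was 0.32 ± 0.27 at week 1 and 0.59 ± 0.27 at week 3, neither of them called (adjusted p = 0.410 and 0.103, limma). Without female control replicate 2, the lowest control, the week 6 change was 0.71 and the call was lost.

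Male *Angpt1* varied too widely within groups for a comparison of this size. The 3 controls held 34.9, 13.6 and 12.3 CPM, a coefficient of variation of 62.7%, and the week 6 libraries held 33.2, 23.7 and 15 CPM. The male changes were −0.09, 0.20 and 0.33 with SEs of 0.38 to 0.41, so an increase of the size seen in females was not detectable at this spread. The lncRNA Gm17473 shares 11.34% of the merged exon bases of *Angpt1* on the opposite strand and was not called in either sex.

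The receptors moved unequally in females. *Tie1* (chromosome 4, 118328385 to 118347261, minus strand) fell at all 3 weeks in both sexes. *Tek* (chromosome 4, 94627291 to 94763224, plus strand) changed less than *Tie1* in females. In males the receptors lay close together, with *Tek* at −0.35, −0.33 and −0.46 and *Tie1* at −0.44, −0.50 and −0.51. In female controls *Tie1* stood at 137, 139, 145 and 140 CPM. It was 74.1, 72.7, 79.1 and 87.0 CPM at week 1, 92.7, 81.2, 83 and 87.7 CPM at week 3 and 78.4, 77.7, 77.8 and 86.7 CPM at week 6. The groups were far apart, since the highest of the 12 libraries after tamoxifen held 92.7 CPM and the lowest control 137 CPM. The changes were −0.84, −0.70 and −0.81 with an SE of 0.075 each (adjusted p = 3.06e-08, 3.31e-07 and 3.44e-08, limma), and all 3 held in every fit that left out 1 library.

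Male *Tie1* was called at all 3 weeks too. The controls held 158, 129 and 150 CPM, the week 1 libraries 99.7, 96.1, 104 and 133 CPM, the week 3 libraries 122, 103, 99.7 and 89.2 CPM and the week 6 libraries 105, 82.4 and 121 CPM. One week 1 library lay above the lowest control, and the others lay below all controls. The changes were −0.44 ± 0.14, −0.50 ± 0.14 and −0.51 ± 0.15 (adjusted p = 0.0223, 0.0148 and 0.0155, limma). The week 1 call was lost without control replicate 1 or 4 or week 1 replicate 1 or 2, the week 3 call without control replicate 1 or 4, and the week 6 call without control replicate 1 or week 6 replicate 3, with changes between −0.64 and −0.36 over all these fits.

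*Tek* was called once in each sex. At week 3 the female libraries held 54.7, 39.4, 38.7 and 45.2 CPM, against 55.9, 51.9, 58.8 and 51.8 CPM in controls, and the change was −0.30 ± 0.10 (adjusted p = 0.0242, limma). At week 6 the male libraries held 59.3, 46.9 and 38.8 CPM, against 62.1, 61.7 and 74.0 CPM in controls, and the change was −0.46 ± 0.15 (adjusted p = 0.0282, limma). The female groups overlapped in 1 library and the male groups did not overlap. Each of the calls was lost in several leave-one-out fits: the female one without control replicate 1 or 3 or week 3 replicate 2 or 3 (changes of −0.41 to −0.24), the male one without control replicate 4 or week 6 replicate 3 or 4 (changes of −0.62 to −0.31). The other changes of *Tek* lay between −0.35 and −0.14. Male *Tek* also lay below all male controls at weeks 1 and 3, at most 60.7 and 55.8 CPM, though not called. Female *Tek* at week 6, at most 51.3 CPM, lay just below all female controls.

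Within a library the ratio of *Tie1* to *Tek* does not depend on the scaling. In female controls it lay between 2.45 and 2.7, in uninduced females between 2.23 and 2.46. It lay between 1.33 and 1.71 at week 1, between 1.69 and 2.14 at week 3 and between 1.52 and 1.83 at week 6, so all 12 ratios after tamoxifen were below all 4 of the controls. In males the ratio was 2.03 to 2.55 in controls, and the groups overlapped, with the male week 6 library of replicate 4 highest of all at 3.13. The ratio of *Angpt2* to *Angpt1* had a median of 0.335 in male controls and of 0.0839, 0.0874 and 0.0682 at weeks 1, 3 and 6, but 1 control at 0.105 lay within the range after tamoxifen. Uninduced males, at 0.0793 to 0.172 with a median of 0.130, overlapped both the controls and the induced males. In females its medians were 0.212 in controls, 0.163 in uninduced hearts and 0.126, 0.0810 and 0.0830 after tamoxifen, also with overlap in part.

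**Figure D2:**
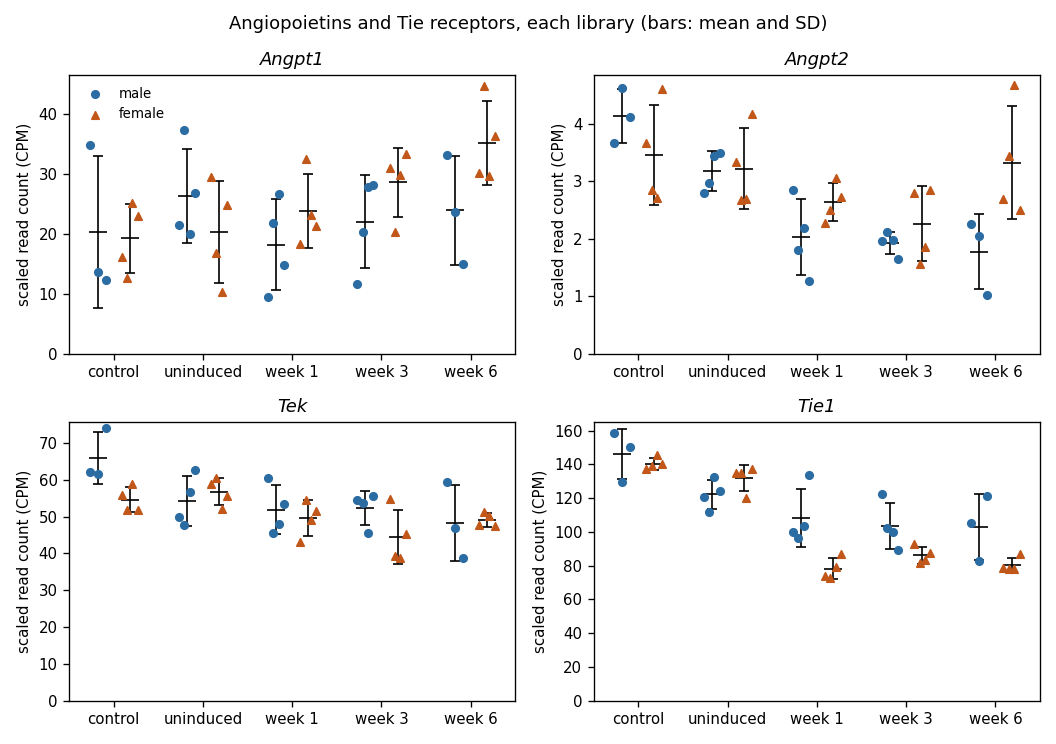
Scaled read counts (y axis, CPM, from 0) of the angiopoietins and Tie receptors in each male (circles) and female (triangles) library by group, with the mean and SD of each group. Female *Tie1* separates without overlap, from 137 CPM or more in controls to 92.7 CPM or less in induced hearts, and *Angpt2* separates in males only.

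Of the Notch ligands, *Dll4* (chromosome 2, 119156170 to 119166443, plus strand), the ligand of tip and arterial endothelial cells, fell in both sexes, while *Jag1* (chromosome 2, 136923373 to 136958693, minus strand), a ligand also made by smooth muscle, was not called at any week. Female *Dll4* stood at 18.4, 21.6, 30.3 and 27.3 CPM in controls. It was 12.9, 14.5, 15 and 16.5 CPM at week 1, 14.8, 17.4, 14.5 and 14.5 CPM at week 3 and 13.3, 12.8, 13.6 and 15.4 CPM at week 6. All 12 libraries lay below the lowest control. The changes were −0.69 ± 0.12, −0.63 ± 0.12 and −0.78 ± 0.12 (adjusted p = 0.000276, 0.000540 and 4.44e-05, limma), and the calls held without any single library.

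In males *Dll4* stood at 24.3, 26.8 and 23.9 CPM in controls and at 16.7, 12.8, 13.5 and 20.9 CPM at week 1. At week 3 it was 18.9, 17.1, 14.8 and 16.5 CPM, and at week 6 21.3, 12.2 and 24.6 CPM, the last of these being the library of replicate 4. Weeks 1 and 3 lay below all controls, and week 6 did not. The changes were −0.66 ± 0.19 and −0.56 ± 0.19 at weeks 1 and 3 (adjusted p = 0.0123 and 0.0407, limma) and −0.42 ± 0.20 at week 6 (adjusted p = 0.136, limma). Week 1 lost its call without control replicate 3. Week 3 lost its call in 6 of 7 leave-one-out fits, all but that without week 3 replicate 1, and the week 6 change was −0.62 and called without week 6 replicate 4. The lncRNA Gm14207 shares 15.61% of the merged exon bases of *Dll4* on the opposite strand and changed by −0.51, −0.35 and −0.66 in males, the last of these called.

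*Jag1* lay between 9.88 and 18.1 CPM in the male libraries after tamoxifen and between 12.5 and 15.7 CPM in male controls. In females it lay between 11 and 15.3 CPM after tamoxifen and between 11.5 and 13 CPM in controls. Its 6 changes lay between −0.20 and 0.17 with SEs of 0.12 to 0.18. The ratio of *Dll4* to *Jag1* within a library lay between 1.42 and 2.57 in female controls and between 1.75 and 2.84 in uninduced females, and between 0.95 and 1.42 in the 12 female libraries after tamoxifen. In males the medians were 1.94 in controls, 1.24 at week 1, 1.18 at week 3 and 1.92 at week 6, so the male ratio at week 6 did not stand apart from that of controls.

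**Figure D3:**
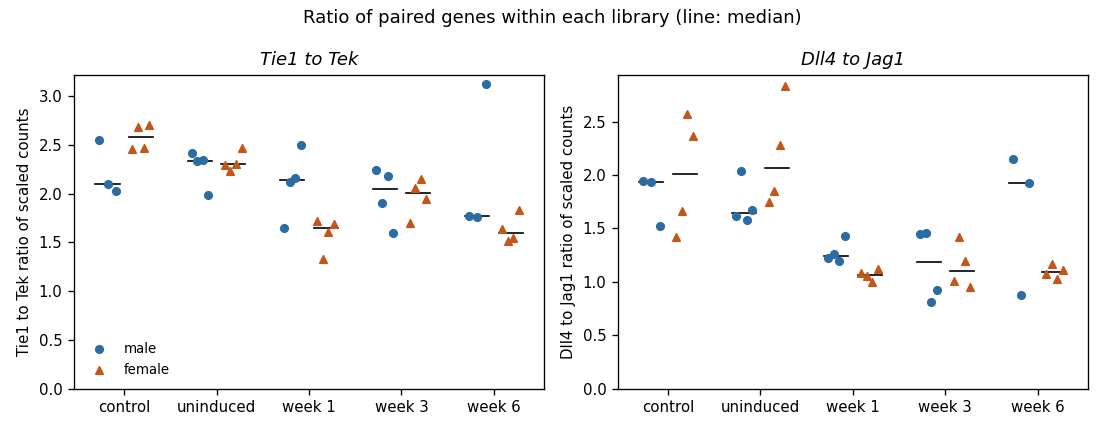
Ratio of scaled counts within each library (y axis, from 0) for *Tie1* to *Tek* (left) and *Dll4* to *Jag1* (right) in males (circles) and females (triangles), with a line at the median of each group. The female *Tie1* to *Tek* ratios are 2.45 or more in controls and 2.14 or less in induced hearts, and the female *Dll4* to *Jag1* medians go from 2.01 in controls to 1.09 at week 6.

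The Notch receptors fell in both sexes at week 1, and in females at all weeks. *Notch4* (chromosome 17, 34783220 to 34807477, plus strand), a receptor found mainly in endothelium, showed the largest female change of the 10 genes. Its female controls held 78.0, 79.2, 68.3 and 73.9 CPM, and the week 6 libraries held 29.4, 26.4, 34.9 and 38.8 CPM. At week 1 it was 33.5, 38.0, 36 and 38.7 CPM, and at week 3 it was 37.4, 29.3, 29.8 and 35.9 CPM. No induced library reached 40 CPM and no control was under 68.3 CPM. The changes were −1.02 ± 0.12, −1.17 ± 0.12 and −1.21 ± 0.12 (adjusted p = 1.61e-06, 2.04e-07 and 1.00e-07, limma), which held without any single library.

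Male *Notch4* fell at week 1. The controls held 65.6, 70.1 and 71.1 CPM, the week 1 libraries 39.7, 28.9, 39.2 and 61.2 CPM, the week 3 libraries 55.4, 38.1, 57.1 and 48.0 CPM and the week 6 libraries 43.9, 49.1 and 80.2 CPM. Weeks 1 and 3 lay below all controls, while at week 6 the library of replicate 4 lay above them all. The change was −0.75 ± 0.21 at week 1 (adjusted p = 0.00969, limma), −0.49 ± 0.21 at week 3 and −0.30 ± 0.22 at week 6 (adjusted p = 0.110 and 0.340, limma). Without week 6 replicate 4 the week 6 change was −0.57, still not called.

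*Notch1* (chromosome 2, 26347915 to 26406675, minus strand), the receptor of the pathway in endothelium and in many other cells, fell at all weeks in females. Its female controls held 42.8, 45.2, 49.9 and 41.4 CPM, week 1 held 26.9, 28.8, 36.8 and 28.6 CPM, week 3 held 29.8, 16.0, 20 and 27.6 CPM and week 6 held 27.5, 21.8, 33.9 and 20.9 CPM. All 12 lay below the lowest control. The changes were −0.57 ± 0.17, −0.97 ± 0.17 and −0.80 ± 0.17 (adjusted p = 0.0170, 0.000194 and 0.000934, limma), and the first of these was lost without week 1 replicate 1, where it was −0.51.

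In males *Notch1* fell at week 1 and was not called later. The controls held 48.5, 55.8 and 56.0 CPM, week 1 held 31.8, 20.2, 26.2 and 30.7 CPM and week 3 held 45.7, 37.1, 43.9 and 41.1 CPM. Weeks 1 and 3 lay below all controls. Week 6 held 35.3, 31.7 and 67.8 CPM, and the library of replicate 4 was again above all controls. The changes were −0.98 ± 0.20, −0.35 ± 0.20 and −0.33 ± 0.22 (adjusted p = 0.00104, 0.253 and 0.281, limma). Without week 6 replicate 4 the week 6 change was −0.66 and called. The male difference between weeks 3 and 1 of 0.63 ± 0.19 had an unadjusted p of 0.00313 and an adjusted p of 0.152 (limma). The lncRNA 0610009E02Rik shares 14.02% of the merged exon bases of *Notch1* on the opposite strand and was not called in either sex.

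**Figure D4:**
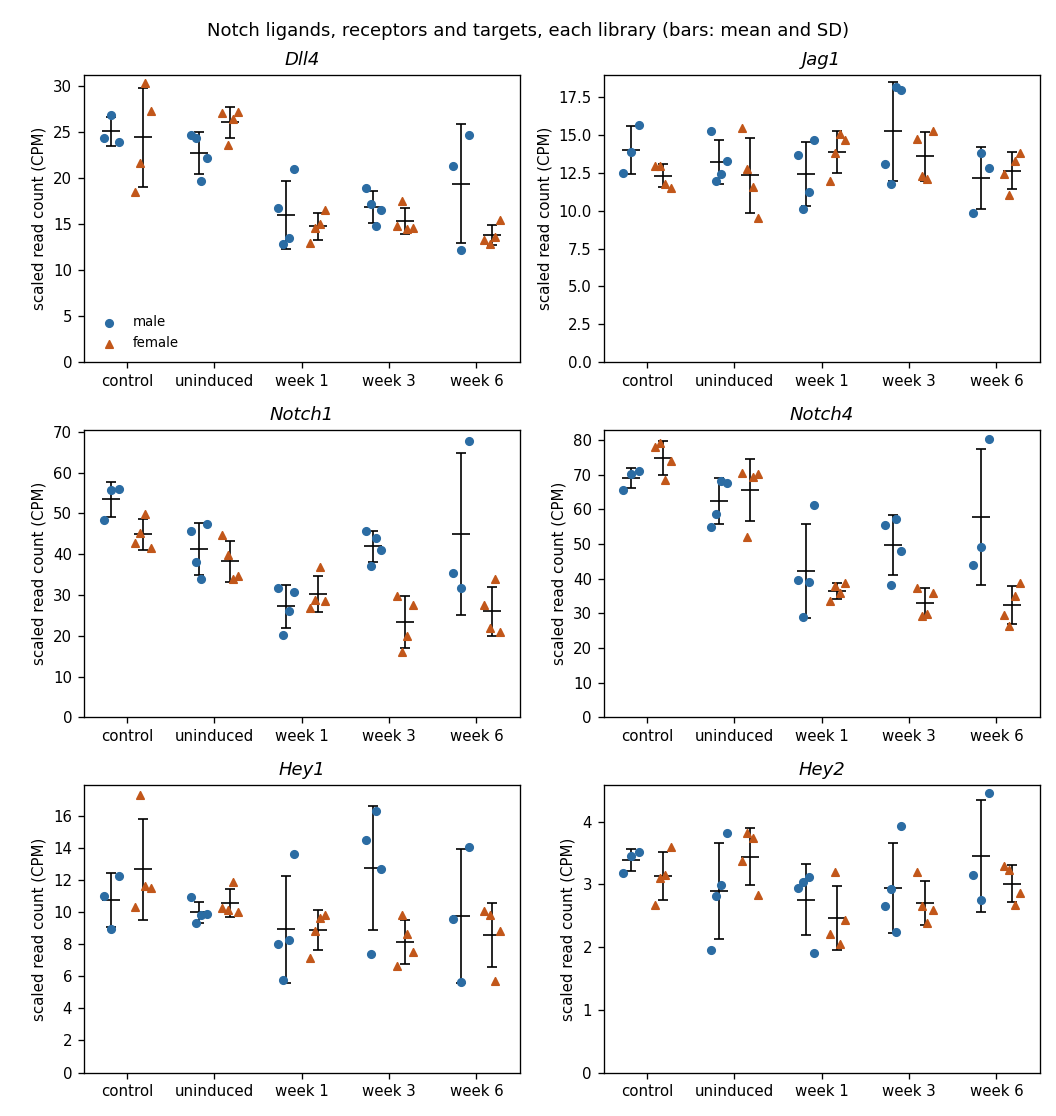
Scaled read counts (y axis, CPM, from 0) of the Notch ligands, receptors and targets in each male (circles) and female (triangles) library by group, with the mean and SD of each group. Female *Dll4*, *Notch1*, *Notch4* and, narrowly, *Hey1* lie below all controls at every week, and 1 male week 6 library stands high for *Notch1* (67.8 CPM) and *Notch4* (80.2 CPM).

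Of the targets, *Hey1* (chromosome 3, 8726956 to 8732385, minus strand) fell in females, and *Hey2* (chromosome 10, 30708350 to 30718828, minus strand) was not called against control. Female *Hey1* stood at 10.3, 17.3, 11.6 and 11.5 CPM in controls, and at 7.11, 8.85, 9.66 and 9.85 CPM at week 1. It was 6.66, 9.84, 8.62 and 7.49 CPM at week 3 and 10.1, 9.79, 5.73 and 8.82 CPM at week 6. All 12 libraries lay below the lowest control, the nearest at 10.1 against 10.3 CPM. The changes were −0.48 ± 0.17, −0.59 ± 0.17 and −0.54 ± 0.17 (adjusted p = 0.0427, 0.0117 and 0.0162, limma). They rested in part on control replicate 2 with its 17.3 CPM, without which all 3 calls were lost and the changes were −0.32, −0.44 and −0.38. The week 1 call was also lost without control replicate 3 or 4 or week 1 replicate 1, 2 or 3, and the week 6 call without week 6 replicate 3.

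Male *Hey1* lay between 8.98 and 12.3 CPM in controls and between 5.65 and 16.3 CPM after tamoxifen, with changes of −0.31, 0.19 and −0.21 and SEs of 0.28 to 0.30. *Hey2*, the least abundant member, stood at 3.19, 3.45 and 3.52 CPM in male controls and at 2.67, 3.1, 3.15 and 3.6 CPM in female controls. After tamoxifen it lay between 1.91 and 4.45 CPM in males and between 2.05 and 3.29 CPM in females. Its male changes were −0.27, −0.20 and 0.00 and its female changes −0.30, −0.18 and −0.05, with SEs of 0.13 to 0.22. The ratio of *Hey1* to *Hey2* lay between 3.18 and 5.59 in female controls and between 2.14 and 3.08 in the female week 6 libraries, which did not overlap. Uninduced females, at 2.66 to 3.54, overlapped both of these groups. The ratio overlapped with that of controls at weeks 1 and 3 and in males.

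None of the 10 genes was called between the uninduced hearts and controls. In males 0 of 10 were called, beside 0.597% of all genes (0.561% higher, 0.0354% lower), and in females 0 of 10, beside 2.87% (2.41% higher, 0.466% lower). At an unadjusted p under 0.05 limma also counted 0 in each sex, and edgeR and DESeq2 on the recovered reads called 0. The median change was −0.19 in males and −0.05 in females. The widest male differences were those of *Angpt1* (0.49 ± 0.38), *Notch1* (−0.38 ± 0.20) and *Angpt2* (−0.34 ± 0.21), where uninduced *Angpt2* at 2.80, 2.96, 3.44 and 3.5 CPM lay below all male controls. Uninduced males held 45.6, 38.1, 34 and 47.3 CPM of *Notch1*, also below all male controls. Uninduced females held 135, 135, 120 and 137 CPM of *Tie1*, 70.6, 52.0, 69.2 and 70.1 CPM of *Notch4* and 27.1, 23.6, 26.4 and 27.1 CPM of *Dll4*, of which *Tie1* lay just below the female controls and the others overlapped them.

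The uninduced hearts share the *Rosa26-Il11* transgene with the induced ones and differ from them by tamoxifen. Being labelled as baseline, they may also differ from them in age, which the labels do not give. Against the uninduced hearts the female calls mostly held. At week 1 4 of 10 were lower, beside 4.26% of all genes lower and 8.32% higher (12.6% called). At week 3 5 of 10 were lower, beside 6.15% lower and 10.6% higher (16.7% called). At week 6 4 of 10 were lower and *Angpt1* was higher, beside 9.08% lower and 13.7% higher (22.8% called). *Tie1* changed by −0.75, −0.61 and −0.71, *Notch4* by −0.82, −0.97 and −1.01 and *Dll4* by −0.80, −0.75 and −0.89, all of them called. *Notch1* was called at weeks 3 and 6 (−0.73 and −0.57), *Tek* at week 3 (−0.36), and *Hey2* at week 1 (−0.42 ± 0.13, adjusted p = 0.0477, limma), while *Hey1*, at −0.25 to −0.37, was not. The *Tie1*, *Dll4* and *Notch4* calls and that of *Notch1* at week 3 held without any single library. The *Hey2* call was lost in 6 of 8 leave-one-out fits, all but those without uninduced replicate 4 or week 1 replicate 2. The week 3 *Tek* call was lost without uninduced replicate 2 or week 3 replicate 2 or 3. At week 6 the calls of *Angpt1* (0.58 to 1.07 over these fits) and *Notch1* (−0.70 to −0.47) were each lost in 4 of 8, both without uninduced replicate 2 or week 6 replicate 2 or 4, *Angpt1* also without uninduced replicate 3 and *Notch1* without uninduced replicate 1. In males 4 of 10 were lower at week 1 (*Angpt2*, *Dll4*, *Notch1* and *Notch4*), beside 6.66% of all genes lower and 12.1% higher (18.8% called). *Angpt2* alone was lower at week 3, beside 5.46% lower and 10.6% higher (16.1% called), and at week 6, beside 7.40% lower and 13% higher (20.4% called). Its changes were −0.57, −0.60 and −0.73 at the 3 weeks. Each male call was lost in at least 1 fit that left out a single library. *Angpt2* was called in 1 of 8 leave-one-out fits at week 1 (that without week 1 replicate 1) and in 1 of 8 at week 3 (that without uninduced replicate 1), and at week 6 the call was lost without week 6 replicate 4 (week 6 changes of −0.89 to −0.47 over 7 fits). At week 1 *Dll4* stayed called only without uninduced replicate 3 or week 1 replicate 4, and *Notch4* only without uninduced replicate 1 or week 1 replicate 4. The *Notch1* call was lost without uninduced replicate 1 or 4 or week 1 replicate 2 or 3.

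None of the 10 genes was called between weeks, in males or in females. limma counted 1, 2 and 0 of 10 at an unadjusted p under 0.05 for weeks 3 against 1, 6 against 1 and 6 against 3 in males and 1, 1 and 1 in females, and edgeR and DESeq2 called 0. Of all genes, 0.0177% (0.0118% higher, 0.00591% lower), 0.165% (0.130% higher, 0.0354% lower) and 0% were called in males. In females it was 0.218% (0.165% higher, 0.0531% lower), 1.03% (0.891% higher, 0.142% lower) and 0%. At this depth and spread no order of the weeks could be read for any member.

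Some endothelial markers were lower in the induced hearts than in controls. Over the comparisons with control after tamoxifen, 8.10% to 21.0% of all genes were lower and 13.2% to 21.7% higher. Of 14 endothelial markers 0 were higher and 5, 3 and 3 lower in males at weeks 1, 3 and 6, and 0 higher and 8, 7 and 7 lower in females. Their summed level went from 1277 to 1419 CPM in male controls to between 862 and 1336 CPM after tamoxifen, and from 1264 to 1349 CPM in female controls to between 829 and 1118 CPM, and none of them was at 0. Uninduced males, with 977 to 1187 CPM, also lay below all male controls, and their median marker change of −0.26 compares with −0.30, −0.10 and −0.20 at weeks 1, 3 and 6, although 0 of the 14 were called. Uninduced females held 1175 to 1287 CPM, which overlapped their controls, with a median change of −0.06 and 0 of 14 called. *Kdr*, the main VEGF receptor of endothelium, fell by 1.19 on the log2 scale in males and by 0.80 in females at week 6, and *Cdh5*, the cadherin of endothelial junctions, fell by 0.63 and by 0.65, whereas *Emcn* and *Tal1* were not called. Of 10 pericyte and smooth muscle markers, 1 to 3 were lower and 0 higher in each comparison, with *Rgs5* and *Kcnj8* falling at week 6 in both sexes. Macrophage markers (7 or 8 of 8 higher) and fibroblast markers (6 to 8 of 8 higher) rose beside them, and all 5 erythroid markers were higher in females at week 1. All 8 macrophage markers were also higher in uninduced females, beside 2.41% of all genes. Of 8 cardiomyocyte markers 1 to 3 were lower and 0 higher in each comparison after tamoxifen, and of 6 skeletal muscle markers 3 were tested, of which *Ckm* was lower at every week in both sexes. The part of these cell types in the changes of the 10 genes was not tested.

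Each library was also scaled to the mean log2 value of the 14 endothelial markers, which gives changes relative to those markers. It raised the median of all genes by 0.36, 0.22 and 0.24 in males and by 0.38, 0.39 and 0.30 in females on the log2 scale, so that 35.9%, 18.6% and 23.7% of all genes in males and 49.9%, 51.7% and 43.2% in females were then called higher, and 2.59%, 1.89% and 2.04% in males and 2.06%, 2.24% and 5.86% in females lower. In females *Tie1* (−0.44, −0.29 and −0.48) and *Notch4* (−0.62, −0.76 and −0.89) stayed lower and called at all 3 weeks. *Notch1* was called lower at weeks 3 and 6 (−0.56 and −0.48) and *Dll4* at week 6 (−0.46). *Jag1* (0.57, 0.55 and 0.36) and *Angpt1* (0.72, 1.00 and 1.21) were called higher at all 3 weeks, and *Tek* at week 1 (0.26 ± 0.10), where its change had been −0.14. *Hey1* was not called. In males 1 gene was called at each week, *Notch1* lower at week 1 (−0.64) and *Angpt2* lower at weeks 3 and 6 (−0.71 and −0.82), and *Tie1* was not called.

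**Figure D5:**
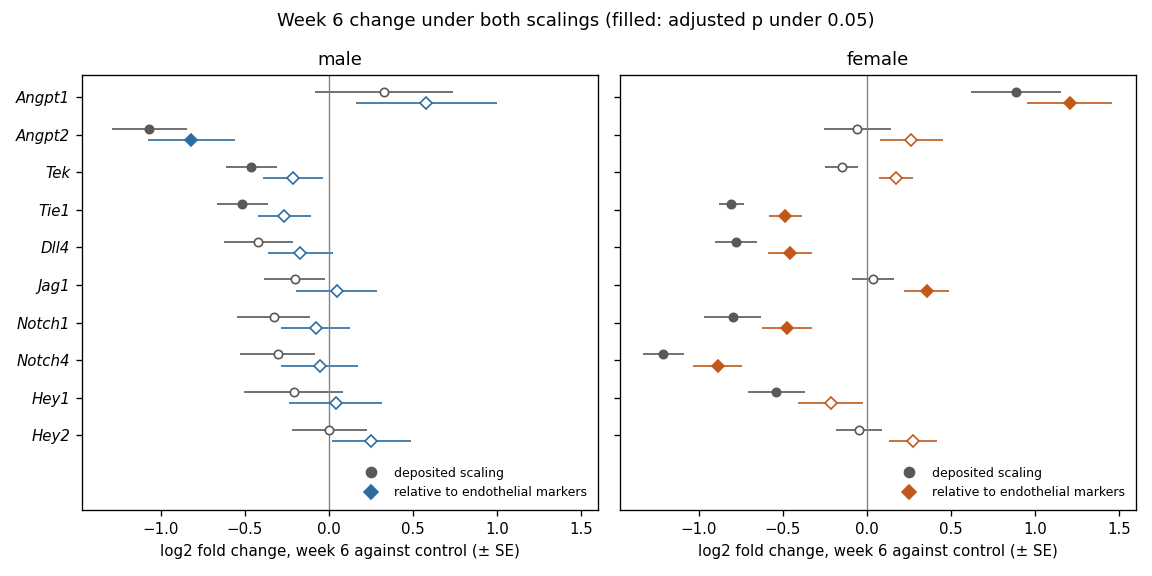
Week 6 log2 fold change against control (x axis, bars ± SE) under the deposited scaling (grey circles) and relative to the 14 endothelial markers (diamonds), with filled symbols for an adjusted p under 0.05. The second scaling by its construction moves every gene of a sex by the same amount, here to the right. *Tie1*, *Dll4*, *Notch1* and *Notch4* in females and *Angpt2* in males stay left of 0 and filled.

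The scaling matters in another way, since the columns of the deposited tables do not sum to the same total. With every library divided by the sum of its listed values, the median of all genes rose against control by 0.33, 0.23 and 0.16 in males and by 0.28, 0.30 and 0.34 in females at weeks 1, 3 and 6. *Tie1* was then −0.50, −0.35 and −0.41 in females and *Notch4* −0.68, −0.82 and −0.81, all still called, beside 3.44%, 3.55% and 6.16% of all genes lower and 41.3%, 41.9% and 49.3% higher, and *Angpt2* was −0.61, −0.70 and −0.89 in males, also called, beside 3.82%, 2.33% and 3.51% lower and 37.9%, 22.9% and 21.3% higher. Male *Tie1* (−0.08, −0.23 and −0.32) and *Dll4* were not called, and *Tek* in females was 0.20, 0.05 and 0.25. Of the 10 genes in females, 3, 3 and 3 were then called lower and 1, 2 and 2 higher, where the deposited scaling gave 5, 6 and 5 lower and 0, 0 and 1 higher. *Jag1* was higher at all 3 weeks and *Angpt1* at weeks 3 and 6, and *Hey1* was not called.

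The other genes of the angiopoietin-Tie pathway moved both ways. Of 10 such genes, listed with earlier results of these data known, 3, 4 and 4 were higher and 3, 1 and 3 lower at weeks 1, 3 and 6 in males, and 4 were higher and 3 lower at each week in females. Over these comparisons 13.2% to 21.7% of all genes were higher and 8.10% to 21.0% lower. *Svep1*, which encodes a large matrix protein that binds Tie1, was at 10.5 to 18.1 CPM in male controls and at 66.5 to 115 CPM after tamoxifen, and at 8.37 to 14.0 CPM in female controls and 62.7 to 128 CPM after tamoxifen. No library overlapped between these groups, and the change at week 6 was 2.36 ± 0.20 in males and 2.90 ± 0.18 in females (adjusted p = 2.79e-08 and 8.91e-11, limma). It was also higher in the uninduced hearts, by 0.95 ± 0.18 in males and 1.22 ± 0.18 in females, both called. *Angpt4*, a further Tie2 ligand, rose by 1.64 ± 0.30 and 1.63 ± 0.18 at week 6, and *Dok2*, an adaptor recruited by Tie2 but best known in blood cells, rose by 0.93 and 0.81, and *Shc1* by 0.37 and 0.50. *Ptprb*, the phosphatase VE-PTP that opposes Tie2, fell by 0.43 and by 0.50, *Ptpn11* fell by 0.63 and by 0.47, and *Angptl1*, an angiopoietin-like secreted protein, fell by 1.14 and by 1.19.

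Of 35 other Notch pathway genes 32 were tested, and most were not called, as was true of all genes tested. In males 5, 3 and 7 were higher and 4, 1 and 2 lower at weeks 1, 3 and 6. Of all genes in males, 18.9%, 13.2% and 16.2% were higher and 14.6%, 8.10% and 10.9% lower. In females 3, 5 and 8 were higher and 4 lower at each week. Of all genes in females, 15.3%, 16.8% and 21.7% were higher and 13.1%, 14.5% and 21.0% lower. *Heyl*, a further Hey repressor that is strongest in vascular smooth muscle and pericytes, was at 24.5 to 37.4 CPM in male controls and at 5.86 to 11.1 CPM after tamoxifen, and at 26.5 to 30.7 CPM in female controls and 6.99 to 10.4 CPM after tamoxifen. Its changes were −1.66, −1.57 and −1.78 in males and −1.49, −1.76 and −1.44 in females, all called and larger than those of *Hey1* and *Hey2*. *Jag2* fell in females by 0.73, by 0.80 and by 0.77, and *Numb*, an inhibitor of Notch, fell at week 6 by 0.44 in males and by 0.59 in females. *Dlk1*, a ligand-like protein, rose at week 6 by 2.12 ± 0.35 and 1.37 ± 0.21, *Dtx4* by 1.12 and 1.69, *Mfap5* by 1.16 and 0.90, *Numbl* by 1.02 and 0.83 and *Psen2* by 0.41 and 0.36. *Rbpj* rose in females, by 0.67 ± 0.10 at week 6, and the direct targets *Hes1* and *Nrarp* were not called at week 6 in either sex.

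The vascular marker lists other than the broad one were mixed. Of 10 markers of tip or activated endothelium, 4 or 5 were higher and 1 lower in each comparison with control after tamoxifen. Beside these, 13.2% to 21.7% of all genes were higher and 8.10% to 21.0% lower. *Apln*, the tip cell peptide apelin, fell at week 6 by 2.04 in males and by 1.08 in females, whereas *Selp* and *Vcam1*, adhesion molecules of activated endothelium, rose. Of 8 arterial markers *Efnb2* fell at all weeks in both sexes, by 0.97 in males and by 0.47 in females at week 6, and *Fbln5* rose at week 6 in both sexes. Of 5 venous markers *Ackr1* rose in both sexes. With few markers on each list no count over them was read further.

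The members were also compared with one another across libraries, as a description. Over the 18 male libraries the Pearson correlation of log2 values was 0.81 for *Notch1* and *Notch4*, 0.78 for *Tie1* and *Dll4*, 0.73 for *Dll4* and *Notch4* and 0.69 for *Tie1* and *Notch4*. Over the 20 female libraries these values were 0.81, 0.91, 0.87 and 0.94. After the group means were taken out they were 0.73, 0.66, 0.49 and 0.64 in males and 0.27, 0.33, 0.11 and 0.36 in females, so in females most of the likeness lay between the groups. *Tie1* and *Tek*, the receptors, correlated at 0.49 and 0.64, and *Hey1* and *Hey2* at −0.08 and 0.39. *Angpt1* ran against several of the others in females, at −0.56 with *Notch4*, −0.52 with *Hey1*, −0.49 with *Tie1*, −0.47 with *Dll4* and −0.40 with *Notch1*, which became 0.06, −0.24, 0.38, 0.28 and 0.24 within groups. In males these values were −0.12, −0.12, −0.21, −0.11 and −0.18, which became −0.396, −0.193, −0.303, −0.334 and −0.515 within groups. The libraries of a sex share their scaling, and *Tie1*, *Notch4* and *Dll4* in females correlated with the column sum at 0.87, 0.83 and 0.78, which fell to −0.01, −0.38 and 0.02 within groups.

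Among 10622 genes with a mean of at least 5 CPM in both sexes, the 2 non-member genes whose pattern over libraries was closest to each member were ranked by the mean of the male and female correlation. *Tek* was closest to *Kdr* (0.80) and *Rasgrp3* (0.79), and *Tie1* to *Dennd3* (0.89) and *Nos3* (0.88), the endothelial nitric oxide synthase. *Angpt2* was closest to *Apln* (0.78) and *Sparcl1* (0.78), and *Hey1* to *Pdgfb* (0.82) and *Gata2* (0.76). *Dll4* was closest to *Ppp1r16b* (0.86) and *Epn2* (0.84), *Notch4* to *Lims2* (0.91) and *Slc9a3r2* (0.90), and *Notch1* to *Hspg2* (0.92), the basement membrane proteoglycan perlecan, and *Spen* (0.91), a co-repressor bound by RBPJ. The other 3 members had weaker partners: *Angpt1* with *Dapp1* (0.71) and *Alox5* (0.65), *Jag1* with *Ddi2* (0.70) and *Zcchc2* (0.67), and *Hey2* with *Myct1* (0.64) and *H2bc6* (0.59). Likeness here includes the difference between groups, and it is the top of many comparisons.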

How the data were processed

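PolyA RNA of 40 hearts was sequenced. The authors aligned reads to GRCm39 with STAR, counted them with featureCounts and deposited, for each sex, a table of signal values in CPM, which are read counts divided by a factor per library; dividing by the value of 1 read in each library gave whole reads, to within 0.001, for 100% of the values. Groups and replicate numbers come from the labels. In 2 male libraries titles and descriptions name different groups (control and week 6, crosswise), so both were left out. Replicate libraries are labelled as such, and p-values measure the spread between them.

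Genes at 0.5 CPM or more in at least 3 libraries were tested with limma 3.58.1 (R 4.3.3, mean-variance trend) on log2(CPM + 0.5), all 5 groups of a sex in 1 fit, 16931 genes in males and 16956 in females. Fold changes on this scale understate the change of low genes. edgeR 4.0.16, DESeq2 1.42.0, other pseudocounts, filters, scalings, the 2 groups compared alone, a replicate block and leaving out each library were tried as alternatives, and the scripts were tested on simulated data. In 54 pairs of replicate libraries the chi-square per gene was at least 6.59, so none was counted as a duplicate. The 10 genes and all lists were chosen with earlier results of these data known. All 10 are named throughout; of each other list the 2 highest and 2 lowest by mean week 6 change could be named, and of the 2 pathway lists also those called at week 6 in both sexes. *Rbpj*, *Hes1*, *Nrarp* and the genes that overlap members were named outside this rule, after their values were seen. Gene positions and lengths are from GENCODE on GRCm39. Promoter windows are not reported here.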

Additional observations from a re-analysis of the deposited data

Results flagged for a closer look

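In groups of 4 libraries, 1 library stood apart from the other 3 (Dixon's test) in 6 of 80 sets of values of the 10 genes, where chance gives about 1 in 20. They were the lowest male week 1 library for *Hey2* (1.91 CPM), the lowest uninduced female for *Tie1* (120 CPM) and for *Notch4* (52.0 CPM), the highest female week 6 library for *Tie1* (86.7 CPM), the highest female week 3 library for *Dll4* (17.4 CPM) and the highest uninduced female for *Hey1* (11.9 CPM). Groups of 3, among them male week 6, were not tested this way.

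One of the 2 male libraries left out, titled as a control and described as week 6, held 511 CPM of *Il11*, where the labelled male controls held at most 0.147 CPM. It held 89.8 CPM of *Tie1*, 15.5 of *Dll4*, 52.2 of *Notch4* and 1.19 of *Angpt2*. The other, titled as week 6 and described as control, held 0.597 CPM of *Il11*, 144 CPM of *Tie1*, 27.5 of *Dll4*, 87.6 of *Notch4* and 3.42 of *Angpt2*.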

How the results depend on the processing

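Counts below are of the 10 genes called at weeks 1, 3 and 6. Of the alternatives, shares of all genes called are given here only for the 2 scalings against control. Under the other settings a changed count cannot be told apart from a general gain or loss of calls. A minimum log2 fold change of 1 left 0, 0 and 1 in males and 1, 1 and 1 in females against control, and 0, 0 and 0 in males and 0, 0 and 1 in females against uninduced. Scaling to the sum of listed genes, chosen after seeing the data, left 2, 1 and 1 in males (3, 3 and 3 lower with 1, 2 and 2 higher in females) against control, and in males 0 at weeks 1 and 3 against uninduced. Scaling to endothelial markers left 1, 1 and 1, and 0 and 0. The 2 left-out males placed by their titles gave 2, 0 and 0 against control, and 0 at week 6 against uninduced. That placement puts a library with 511 CPM of *Il11* among the controls and one with 0.597 CPM at week 6. Placed by their descriptions, the male calls against control stayed except for 3 values. *Notch4* at week 3 (−0.57, adjusted p = 0.0314, limma) and *Dll4* at week 6 (−0.52, adjusted p = 0.0253, limma) became called. *Tek* at week 6 (−0.34, adjusted p = 0.0522, limma) lost its call. edgeR gave 1 and 0 in males at weeks 1 and 3 against uninduced, and a pseudocount of 0.1 gave 0 at week 3. The 2 groups fitted alone gave 6 and 1 in males at weeks 3 and 6 against control, and 2 at week 3 against uninduced. Leaving out each library gave 4 to 5, 1 to 3 and 1 to 4 in males and 3 to 5, 5 to 7 and 4 to 6 in females against control, and 0 to 3, 0 to 1 and 0 to 1 in males and 3 to 4, 4 to 5 and 3 to 5 in females against uninduced. The causes were not tested.

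*Tek* in females changed sign: 0.26 at week 1 and 0.108 at week 3 against control, and 0.031 at week 3 against uninduced, under endothelial scaling, and 0.047 at week 3 against control under sum scaling. Changes of sign of values called in neither fit were not counted. All genes split at week 6 into 2742 higher and 1838 lower in males and 3678 and 3567 in females, under sum scaling into 3606 and 595, and 8356 and 1045, and under endothelial scaling into 4015 and 346, and 7330 and 994. Replicate numbers did not pair the libraries (mean correlation of same-numbered deviations 0.013 in males and 0.025 in females). A replicate block gave 5, 3 and 3 in males and 5, 6 and 6 in females against control. The lowest read count behind any value of the 10 genes was 34, for *Angpt2* in a male week 1 library.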
